A study of Arabidopsis thaliana with 57 samples.

Results

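The suvh1-2 mutant of Arabidopsis thaliana carrying the transgene cassette ARE//AGe was represented by 5 of the 57 strand-specific RNA libraries of the series, 2 from young flowers labelled Wt and 3 from young flowers labelled sMf. They were chosen by genotype, cassette and phenotype labels, though with earlier results of these data known. All 5 belong to batch B, whose libraries carried unique dual index primers. They were set against 3 libraries of suvh1-2 without a cassette and 3 libraries of Col (the Columbia background) with ARE//AGe, all from Wt flowers and all of batch B. These 11 libraries are the main ones. Some comparisons also used batch B libraries of Col, hdp1-1 and hdp2-1 without a cassette, from Wt flowers. Others used hdp1-1 and hdp2-1 with ARE//AGe, from flowers labelled Wt, sMf or rMf. Batch A libraries of Col with ARE//AGe, or with another cassette labelled Ctr//AGe, from Wt flowers, are only quoted beside the batch B values. Each replicate was RNA pooled from several lines of 1 phenotype, so replicates show the spread between such pools. The edgeR p-values of the main fit take this spread from all 57 libraries together, not from the compared groups alone. The labels do not spell out sMf or rMf, and replicate 1 of the Wt group of suvh1-2 with ARE//AGe is not analysed here.

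AGAMOUS (AG, AT4G18960) encodes a MADS-box transcription factor that specifies stamens and carpels and ends the growth of the floral meristem. Its large intron holds the enhancer (AGe) through which LEAFY (LFY) and WUSCHEL (WUS) activate it in the centre of the flower. In RNA-directed DNA methylation (RdDM), noncoding transcripts and small RNAs guide methylation to matching DNA. SUVH1 binds methylated DNA and, in this plant, is known for keeping some methylated genes expressed. The series title presents ARE as an element that counters RdDM at a regulatory sequence. The phenotype comparison asks whether RNA over AG differs between flowers of the same genotype and cassette.

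Reads were counted on each strand of 2 regions, which gives 4 features. AGe lies on chromosome 4 from 10384147 to 10387145 (2999 bp, 28.6% GC) and coincides with an intron of 1 of the 4 annotated AG transcripts, while the others have within it the 90 bp exon at 10386982 to 10387071. The second region runs from 10380701 to 10382800 (2100 bp, 28.6% GC), is intergenic and ends 56 bp before the start of AG. The deposited header calls it AG promoter (AGp) or M2 without saying which name goes with which libraries, so it is called the promoter column here, and comparing it between groups takes for granted that 1 region was counted throughout. AG is on the plus strand, so plus-strand reads are called sense. Sense reads over AGe may come from AG transcripts themselves, so they are called enhancer reads by position only. Reads from a cassette copy and from the gene itself cannot be told apart, nor can fewer cells that make an RNA and less of that RNA per cell. The counts also do not tell how AGe is oriented in the cassette.

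The stretch of AGe at chr4:10386371-10386670 is shown because no other 300 bases of AGe hold more matches to the motifs below. They include motifs named for regulators of AG. The last 300 bases of the promoter column, chr4:10382501-10382800, are shown as the end nearest to AG. Both are plus-strand RefSeq sequence of TAIR10.1. Capitals mark matches, on either strand, to the LFY core CCANTG, the WUS element TTAATGG and the CArG box, the MADS-domain binding motif. LFY and CArG matches may overlap other matches.
AGe enhancer: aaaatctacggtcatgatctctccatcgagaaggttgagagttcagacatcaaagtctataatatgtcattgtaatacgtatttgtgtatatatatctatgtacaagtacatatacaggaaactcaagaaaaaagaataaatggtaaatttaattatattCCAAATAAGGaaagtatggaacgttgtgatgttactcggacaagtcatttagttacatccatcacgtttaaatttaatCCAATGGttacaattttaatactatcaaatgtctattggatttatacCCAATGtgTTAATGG
Promoter column: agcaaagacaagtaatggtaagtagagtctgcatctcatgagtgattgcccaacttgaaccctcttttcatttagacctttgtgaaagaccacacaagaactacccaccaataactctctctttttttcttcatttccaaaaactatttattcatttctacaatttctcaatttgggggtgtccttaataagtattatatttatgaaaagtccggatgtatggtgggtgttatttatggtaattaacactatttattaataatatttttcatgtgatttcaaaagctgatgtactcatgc
The first stretch holds 3 LFY core matches, 1 WUS match and 1 CArG box, and the other stretch holds none. The first was chosen for its matches and the other by position, so this difference follows from the choice. Over the whole of AGe there were 6 LFY, 1 WUS and 1 CArG matches, where 32.81% of 39646 genome windows of that length had as many LFY matches, 40.64% had a WUS match and 17.36% had a CArG box. The promoter column held 1 match of each, and 91.26%, 30.64% and 12.51% of 56631 windows of its length had at least that. Such matches are a description of the letters only.

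Uniquely mapped reads ranged from 27091702 to 40799425 in the 5 libraries and from 16259524 to 40799425 over all 11. Each library had 78 to 468 AGe sense reads and at most 39 reads of both strands in the promoter column. Of the mapped reads, 10.8% to 16.3% were multiply mapped in 10 of the libraries and 21.5% in suvh1-2 ARE//AGe sMf replicate 3. Levels are given in RPM, the count divided by uniquely mapped reads times 1000000. Fold changes and their p-values come from edgeR's quasi-likelihood test over all 57 libraries. Standard errors (SE) are the absolute log2 fold change divided by the square root of the test's F statistic. The 95% intervals are built from these SE, on the log2 scale. Adjusted p-values are by Benjamini-Hochberg over the 4 features of a comparison, and a feature is said to be called where this value is under 0.05. The table has no count for the SUVH1 gene, so the genotype was not checked here. AG sense reads, from a gene active in young flowers, were present in every library. The 3 libraries labelled suvh1-2 without a cassette stood apart from the other batch B libraries labelled as having none, in promoter-column reads and in antisense enhancer reads, and every comparison with them below rests on that label.

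Among suvh1-2 plants with ARE//AGe, sMf flowers had more enhancer reads than Wt flowers on both strands, and the larger fold was on the antisense strand. AGe sense reads were 6.49 and 7.41 RPM in the Wt libraries, replicates 2 and 3. In the sMf libraries they were 8.82, 11.5 and 10.8 RPM for replicates 1, 2 and 3. The groups did not overlap. The means were 6.95 ± 0.652 RPM (SD, n = 2) and 10.4 ± 1.38 RPM (SD, n = 3), a 1.49-fold difference (log2 0.58 ± 0.22 SE, 95% interval 0.14 to 1.02, edgeR adjusted p = 0.0209). On the antisense strand the Wt libraries had 20 and 22 reads, or 0.505 and 0.602 RPM. The sMf libraries had 27, 48 and 60 reads, or 0.997, 1.18 and 1.69 RPM. Again no sMf library fell into the Wt range. The antisense means were 0.553 ± 0.0683 RPM (n = 2) and 1.29 ± 0.358 RPM (n = 3), a 2.34-fold difference (log2 1.22 ± 0.39 SE, 95% interval 0.43 to 2.02, edgeR adjusted p = 0.0133). These are 2 called features of 4 tested, 50.0%.

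**Figure D1:**
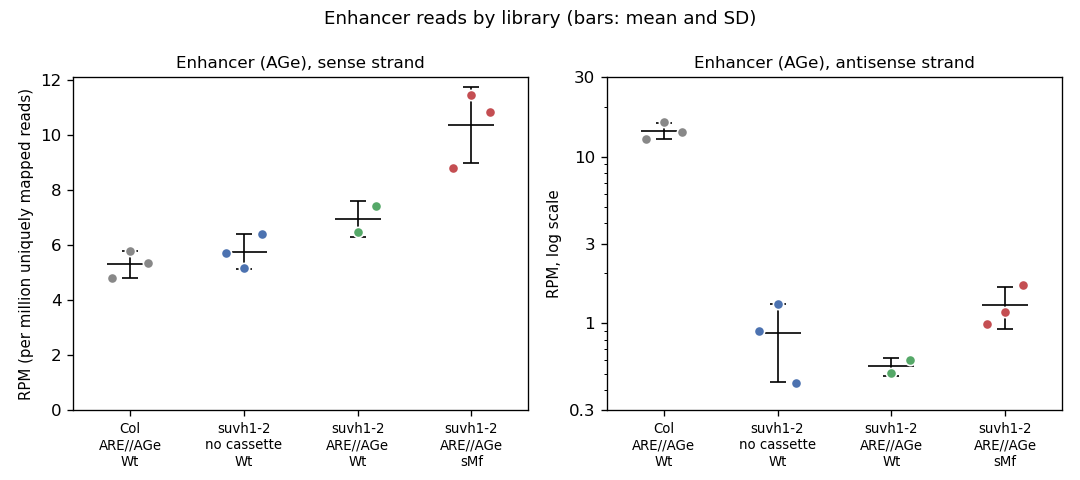
Enhancer reads (AGe) in each of the 11 libraries, in RPM, for the sense strand on a linear axis from 0 and the antisense strand on a log axis. Points are libraries and bars are the mean and SD; the sMf libraries lie at 8.82 to 11.5 RPM sense, above the other 3 groups, and the Col libraries at 12.9 to 16.1 RPM antisense.

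Both calls rest on few libraries. Without sMf replicate 3, the library with 21.5% multiply mapped reads, the differences were log2 0.55 and 0.98 and neither was called (edgeR adjusted p = 0.0537 for both strands). Without Wt replicate 2, which leaves 1 Wt library, they were log2 0.49 and 1.10 (edgeR adjusted p = 0.181 and 0.151). Without sMf replicate 2 the sense call alone was lost (edgeR adjusted p = 0.0797). When every library of the series with over 20% multiply mapped reads was left out, both strands were called (log2 0.55 and 0.98, edgeR adjusted p = 0.0428 for both). The sense call was also lost with all mapped reads as library size (log2 0.52, edgeR adjusted p = 0.0803) and with only batch B in the fit (edgeR adjusted p = 0.0538). Over all 17 alternatives the edgeR, DESeq2 and limma adjusted p ranged from 0.00650 to 0.181 for the sense strand and from 0.00386 to 0.151 for the antisense strand. The share of multiply mapped reads was 10.9% and 13.1% in the Wt libraries and 11.6%, 13.5% and 21.5% in the sMf libraries. With 2 libraries against 3, a two-sided exact permutation test of mean RPM cannot go below 0.1, and it gave 0.2 for the sense and 0.1 for the antisense strand.

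The antisense share of enhancer reads was low in all 5 libraries. It was 7.22% (exact 95% interval 4.47% to 10.9%) and 7.51% (4.77% to 11.1%) in the Wt libraries. It was 10.2% (6.80% to 14.4%), 9.30% (6.94% to 12.1%) and 13.5% (10.4% to 17.0%) in the sMf libraries. These intervals cover counting error only, and those of all 3 sMf libraries overlap both Wt intervals. The group means were 7.36% ± 0.204 (SD, n = 2) and 10.98% ± 2.21 (SD, n = 3), with no overlap of the libraries and a two-sided exact permutation p of 0.2.

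The promoter column held 20 and 23 reads in the Wt libraries and 26, 39 and 25 reads in the sMf libraries. Sense reads were 0.126 and 0.328 RPM with Wt flowers and 0.517, 0.392 and 0.281 RPM with sMf flowers. These ranges overlapped. Antisense reads were 0.379 and 0.301 RPM with Wt flowers and 0.443, 0.564 and 0.422 RPM with sMf flowers, where the ranges did not overlap. Neither strand was called: the sense difference was log2 0.79 (95% interval -0.72 to 2.29) and the antisense difference log2 0.49 (95% interval -0.45 to 1.43), with an edgeR adjusted p of 0.298 for both. Counts this small leave both a decrease and a doubling of either strand inside the intervals.

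Set per length, the enhancer outweighed the promoter column in every library. Both strands of AGe together had 2.33 and 2.67 RPM per kb in the Wt libraries and 3.27, 4.22 and 4.17 RPM per kb in the sMf libraries. The promoter column had 0.240 and 0.299 RPM per kb in the Wt libraries and 0.457, 0.455 and 0.335 RPM per kb in the sMf libraries. The promoter column therefore took 6.73% and 7.28% of the reads counted over both regions with Wt flowers, and 8.90%, 7.03% and 5.32% with sMf flowers. These shares overlapped, with means of 7.01% ± 0.385 (n = 2) and 7.08% ± 1.79 (n = 3).

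Compared with suvh1-2 plants without a cassette, the sMf flowers with ARE//AGe had more enhancer sense reads, while no feature of the Wt flowers was called. The suvh1-2 libraries without a cassette had 5.71, 5.17 and 6.42 RPM of AGe sense reads (mean 5.77 ± 0.628, SD, n = 3), below every ARE//AGe library of either phenotype. The sMf level was 1.80-fold higher (log2 0.85 ± 0.20 SE, 95% interval 0.45 to 1.24, edgeR adjusted p = 0.000353), the 1 called feature of 4, or 25.0%. It was called in all 18 alternatives. The Wt level was 1.20-fold higher, and this was not called (log2 0.27, 95% interval -0.17 to 0.71, edgeR adjusted p = 0.449). The exact permutation test gave 0.1 for sMf, the smallest value that 3 libraries against 3 allow, and 0.2 for Wt.

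Antisense enhancer reads without a cassette spread over a wider range than in either ARE//AGe group of suvh1-2. They were 0.899, 1.30 and 0.437 RPM, from 20, 30 and 10 reads. This range holds both Wt libraries with ARE//AGe and sMf replicates 1 and 2, and only sMf replicate 3 lay above it. Wt flowers with the cassette differed from it by log2 -0.67 (95% interval -1.52 to 0.19, edgeR adjusted p = 0.449) and sMf flowers by log2 0.56 (95% interval -0.15 to 1.26, edgeR adjusted p = 0.240). Without suvh1-2 replicate 2, the highest of the 3, the sMf difference was log2 0.96 and was called (edgeR adjusted p = 0.0490), and over its 18 alternatives the adjusted p ranged from 0.0490 to 0.709. The antisense share was 13.6%, 20.1% and 6.37% without a cassette, a mean of 13.4% ± 6.89 (n = 3), and its range spans the shares of all 5 ARE//AGe libraries.

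**Figure D2:**
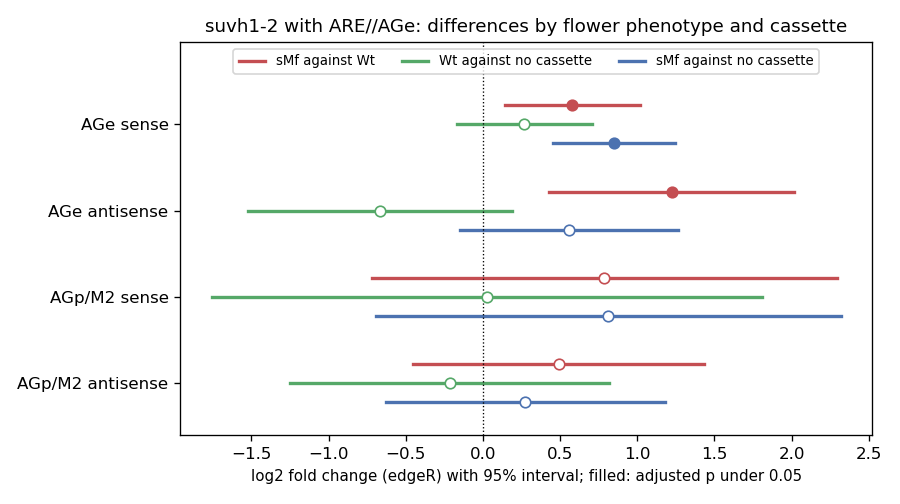
Log2 fold changes from edgeR with 95% intervals for the 4 features (rows) in 3 comparisons within suvh1-2 (colours), with filled points where the adjusted p is under 0.05. Filled points stand at 0.58 and 1.22 for sMf against Wt on the AGe strands and at 0.85 for sMf against no cassette on the AGe sense strand.

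The promoter column was not empty in suvh1-2 plants that had no cassette. It held 16, 17 and 9 reads in the 3 libraries, with sense levels of 0.135, 0.261 and 0.262 RPM and antisense levels of 0.584, 0.478 and 0.131 RPM. Col without a cassette had 0 reads there in 3 libraries, for which counting error alone allows a level of up to 0.0272 RPM in the group. Against that limit of 3 counts over the group, the observed level of suvh1-2 without a cassette was 8.08-fold higher on the sense strand and 14.6-fold on the antisense strand. These folds take the suvh1-2 counts as exact, so they are not lower bounds. The hdp1-1 and hdp2-1 libraries without a cassette had 0 or 1 read in the column, whereas the mutant libraries with ARE//AGe had 10 to 61. The counts of the suvh1-2 libraries labelled as having no cassette thus lay near those of cassette-bearing mutants. The source of these reads, including whether these plants carry other copies of the region, was not tested. ARE//AGe plants of suvh1-2 differed from it by log2 0.03 (95% interval -1.76 to 1.81) on the sense strand and -0.22 (-1.25 to 0.82) on the antisense strand with Wt flowers, and by 0.81 (-0.69 to 2.32) and 0.27 (-0.63 to 1.18) with sMf flowers. The edgeR adjusted p was 0.976 and 0.898 for Wt, and 0.371 and 0.541 for sMf. For Wt flowers against no cassette, edgeR called 0% of the 4 features. Without adjustment it called 0 as well, as did DESeq2 and limma. A miss at this depth does not show equal levels.

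**Figure D3:**
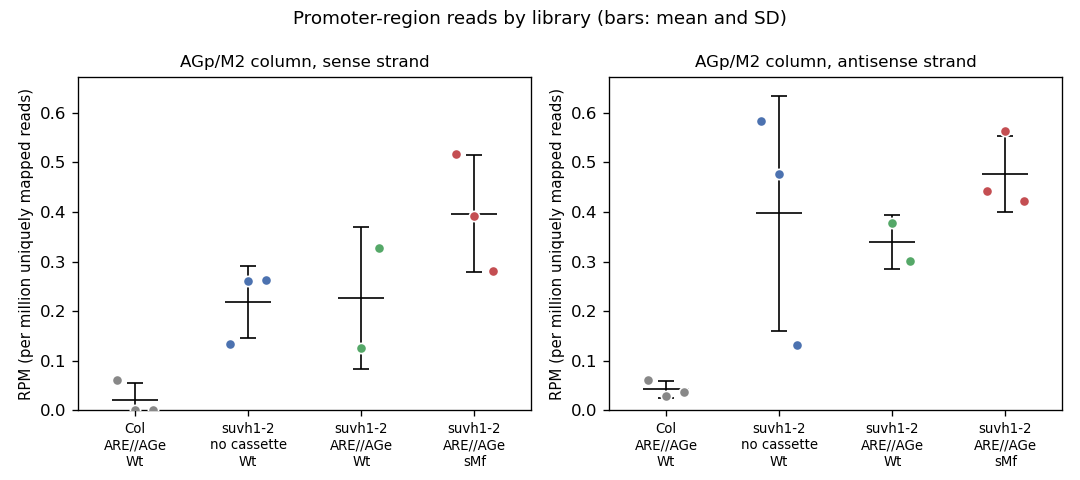
Reads of the promoter column (AGp or M2) in each of the 11 libraries, in RPM on axes from 0, sense and antisense. Points are libraries and bars are the mean and SD; the 8 suvh1-2 libraries lie between 0.126 and 0.584 RPM with or without the cassette, and the 3 Col ARE//AGe libraries between 0 and 0.0615 RPM.

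Set against Col with the same cassette, suvh1-2 with ARE//AGe lacked most of the antisense enhancer reads. The Col ARE//AGe libraries had 12.9, 16.1 and 14.1 RPM of AGe antisense reads, from 209, 554 and 373 reads, and the 5 suvh1-2 libraries had 0.505 to 1.69 RPM, from 20 to 60 reads. The means were 14.3 ± 1.64 RPM (n = 3) and 0.993 ± 0.476 RPM (n = 5), and the difference was log2 -3.96 ± 0.26 SE, 15.5-fold lower (95% interval -4.48 to -3.44, edgeR adjusted p = 1.20e-18). The gap between the highest suvh1-2 library and the lowest Col library was wider than the whole range of either group. AGe sense reads moved the other way, with 4.80, 5.78 and 5.35 RPM in Col and 6.49 to 11.5 RPM in suvh1-2. They were 1.66-fold higher in suvh1-2 (log2 0.73 ± 0.18 SE, 95% interval 0.37 to 1.09, edgeR adjusted p = 0.000270). This holds within batch B only. The 3 Col ARE//AGe libraries of batch A had 13.8 to 15.1 RPM of AGe sense reads, above every suvh1-2 library. Col ARE//AGe flowers were all Wt, whereas 3 of the 5 suvh1-2 libraries were sMf, so genotype and phenotype differ together in this comparison. Among the 5, the lowest sense levels were those of the Wt flowers.

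The strand balance differed accordingly. Antisense reads were 72.8%, 73.6% and 72.4% of the enhancer reads in Col with ARE//AGe and 7.22% to 13.5% in suvh1-2 with ARE//AGe. The means were 72.9% ± 0.582 (n = 3) and 9.53% ± 2.52 (n = 5), with a two-sided exact permutation p of 0.0179, the smallest that 5 libraries against 3 allow. Adjusted over the 45 such tests made, it was 0.134. Both strands together were 19.6 ± 2.12 RPM in Col and 9.997 ± 2.57 RPM in suvh1-2 (exact permutation p = 0.0179, adjusted 0.134). The Col values are those of batch B. In batch A, Col with ARE//AGe had an antisense share of 46.8% ± 0.751 and 27.3 ± 1.31 RPM of both strands (n = 3). Neither the low antisense level nor the low antisense share was particular to suvh1-2. Among the hdp1-1 and hdp2-1 groups with ARE//AGe, mean antisense levels were 0.840 to 1.63 RPM and mean shares 8.39% to 15.0%.

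**Figure D4:**
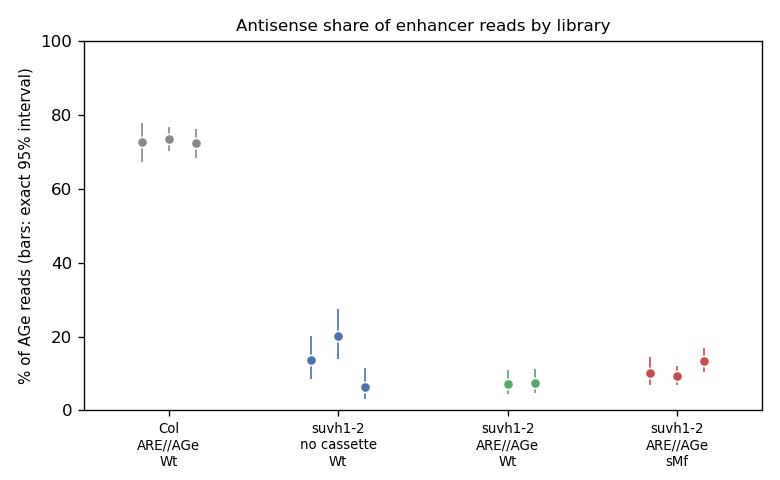
Antisense share of the enhancer reads in each of the 11 libraries, in percent on an axis from 0 to 100, with exact 95% binomial intervals as bars. The 3 Col ARE//AGe libraries lie between 72.4% and 73.6%, and the 8 suvh1-2 libraries between 6.37% and 20.1%.

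Promoter-column reads were more frequent in suvh1-2 with ARE//AGe than in Col with ARE//AGe. Col had 2, 1 and 1 reads in the column, or 0.123, 0.0290 and 0.0377 RPM, whereas every suvh1-2 library had between 20 and 39. Over the groups there were 57 sense reads against 1, a depth-corrected ratio of 24.5 with a 95% counting interval of 4.22 to 985. There were 76 antisense reads against 3, a ratio of 10.9 with an interval of 3.59 to 54.0. Both were called (edgeR adjusted p = 0.00197 and 4.48e-05), so that all 4 features passed in this comparison, 100%. The 1 sense read was in Col ARE//AGe replicate 1. Without that library the observed sense level in suvh1-2 was 6.45-fold higher, set against 3 counts over the other 2 Col libraries. That fold takes the suvh1-2 counts as exact. Without Col ARE//AGe replicate 2 the fitted sense difference was smaller (log2 3.52, edgeR adjusted p = 0.0204) than over all libraries (log2 4.22). Over the 21 alternatives the adjusted p ranged from 5.19e-06 to 0.0204 on the sense strand. The log2 difference itself ranged from 0.66, with limma on log2(RPM + 0.5), to 6.33, so its size is poorly fixed. The level was not particular to suvh1-2. Both strands together were 0.567 RPM with Wt and 0.873 RPM with sMf flowers of suvh1-2, against 0.527 to 0.724 RPM in the 3 phenotype groups of hdp1-1 with ARE//AGe and 0.798 to 1.06 RPM in those of hdp2-1.

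The cassette went with different changes in the 2 backgrounds when each was measured against its own plants without a cassette. On the antisense enhancer strand, Col rose from 0.253 ± 0.0545 to 14.3 ± 1.64 RPM (n = 3 each), while suvh1-2 had 0.8795 ± 0.433 RPM (n = 3) without and 0.993 ± 0.476 RPM (n = 5) with the cassette. The difference between these changes was log2 -5.70 ± 0.50 SE (95% interval -6.72 to -4.68, edgeR adjusted p = 6.07e-14). On the sense strand, Col fell from 7.87 ± 0.980 to 5.31 ± 0.493 RPM, whereas suvh1-2 rose from 5.77 ± 0.628 to 9.003 ± 2.14 RPM. That difference was log2 1.18 ± 0.27 SE (95% interval 0.64 to 1.72, edgeR adjusted p = 0.000128). The Col fall is a batch B result, and batch A had no Col libraries without a cassette. There, Wt flowers of Col had 12.4 ± 1.01 RPM of AGe sense reads with Ctr//AGe and 14.5 ± 0.640 RPM with ARE//AGe (n = 3 each). The suvh1-2 libraries with the cassette pool Wt and sMf flowers, whereas the other groups here were all Wt. Cassette and phenotype therefore differ together in the suvh1-2 change. With Wt flowers alone the suvh1-2 sense change was log2 0.27 and was not called (edgeR adjusted p = 0.449), and with sMf flowers it was log2 0.85. The suvh1-2 baseline was itself unlike the others: its mean antisense share was 13.4%, against 3.18% in Col, 2.63% in hdp1-1 and 3.86% in hdp2-1 without a cassette. Its antisense level also exceeded the 0.107 RPM of hdp1-1 and the 0.132 RPM of hdp2-1. The change in suvh1-2 is therefore a change from the plants labelled as having no cassette, and the part of their high baseline in it was not tested. The calls on both AGe strands, 2 of 4 features or 50.0%, were made under all 26 alternatives. No fold is given for the promoter column, because Col without a cassette had no read there. Within suvh1-2 the sense change with both phenotypes pooled was log2 0.62 ± 0.18 SE (edgeR adjusted p = 0.00512) and the antisense change log2 0.07 (95% interval -0.60 to 0.74, edgeR adjusted p = 0.851).

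The same phenotype contrast could be made with ARE//AGe in hdp1-1 and hdp2-1, mutants of HDP1 and HDP2, which belong to a complex that counteracts silencing. In hdp1-1, AGe sense reads were 12.8, 10.8 and 7.55 RPM with Wt flowers and 8.52, 8.12 and 9.30 RPM with sMf flowers. Antisense reads were 1.82, 0.511 and 0.677 RPM with Wt flowers and 0.520, 1.12 and 0.883 RPM with sMf flowers. These phenotype groups overlapped on both strands, unlike those of suvh1-2. The sMf to Wt difference was larger in suvh1-2 than in hdp1-1 by log2 0.86 ± 0.29 SE on the sense strand and 1.59 ± 0.53 SE on the antisense strand (edgeR adjusted p = 0.0101 for both). These are 2 of 4 features, 50.0%. Both calls were lost without hdp1-1 Wt replicate 1, the highest library on both strands (log2 0.68 and 0.71, edgeR adjusted p = 0.0972 and 0.388), without suvh1-2 ARE//AGe Wt replicate 2 (log2 0.76 and 1.47, edgeR adjusted p = 0.0628 for both), and when the fit held no other groups (edgeR adjusted p = 0.0819 for both). Over 22 alternatives the adjusted p ranged from 0.00300 to 0.0972 (sense) and from 0.00211 to 0.388 (antisense). Multiply mapped reads were 12.8% to 30.9% in the hdp1-1 Wt libraries and 28.1% to 36.5% in the hdp1-1 sMf libraries, and their part in this difference was not tested.

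In hdp2-1 the phenotypes lay closer together. AGe sense reads were 8.44, 9.33 and 8.56 RPM with Wt flowers and 9.82, 7.57 and 8.98 RPM with sMf flowers. Antisense reads were 1.34, 1.20 and 1.43 RPM with Wt flowers and 0.938, 1.40 and 1.12 RPM with sMf flowers. The groups overlapped on both strands. The phenotype difference was larger in suvh1-2 by log2 1.41 ± 0.51 SE on the antisense strand (95% interval 0.37 to 2.44, edgeR adjusted p = 0.0359), the 1 called feature of 4, or 25.0%. On the sense strand it was larger by log2 0.58 ± 0.29 SE, which was not called (95% interval -0.0029 to 1.16, edgeR adjusted p = 0.102). The antisense call was lost in 7 of the 11 refits without 1 library: sMf replicate 3 and Wt replicates 2 and 3 of suvh1-2, and sMf replicates 1 and 3 and Wt replicates 1 and 3 of hdp2-1. In those 7 the log2 difference was 1.16 to 1.53 and the adjusted p 0.0565 to 0.169. It was also lost with all mapped reads as library size (log2 1.22, edgeR adjusted p = 0.128). Over all 23 alternatives its adjusted p ranged from 0.00867 to 0.169.

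**Figure D5:**
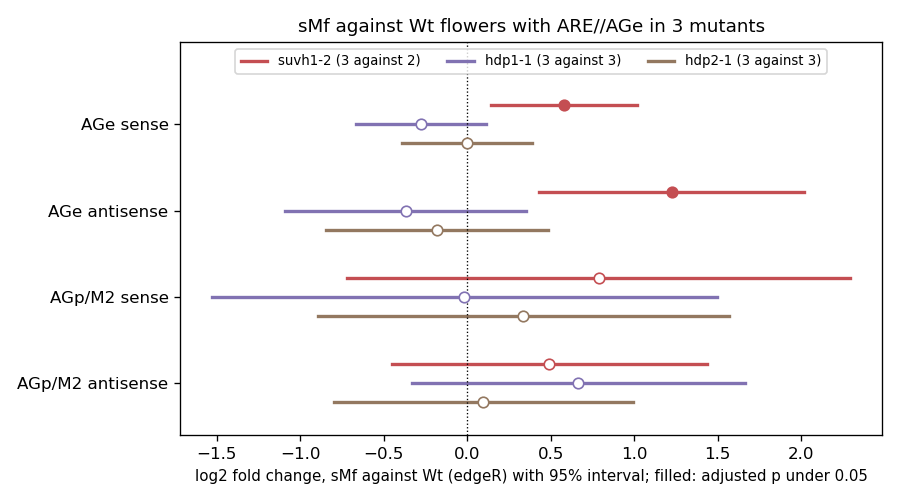
Log2 fold change of sMf against Wt flowers with ARE//AGe in suvh1-2, hdp1-1 and hdp2-1 (colours) for the 4 features (rows), from edgeR with 95% intervals, filled where the adjusted p is under 0.05. The suvh1-2 points for the AGe strands, at 0.58 and 1.22, are filled, and those of hdp1-1 (-0.28 and -0.37) and hdp2-1 (0.00 and -0.18) are open.

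In the promoter column the phenotype differences were not distinguishable between mutants. Against hdp1-1 the difference was log2 0.80 (95% interval -1.36 to 2.97) on the sense strand and -0.18 (-1.55 to 1.19) on the antisense strand, with edgeR adjusted p of 0.606 and 0.797. Against hdp2-1 it was 0.45 (-1.50 to 2.40) and 0.39 (-0.91 to 1.70), with an edgeR adjusted p of 0.639 for both. Each of these intervals includes changes of more than 2-fold.

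Ranked by mean among the 13 batch B groups, suvh1-2 ARE//AGe with sMf flowers came second in AGe sense reads, at 10.4 ± 1.38 RPM, next to hdp1-1 ARE//AGe with Wt flowers at 10.4 ± 2.65 RPM. These neighbours did not differ beyond their spread. Wt flowers of suvh1-2 with the cassette ranked 9 of 13, and suvh1-2 without it ranked 10 of 13. In antisense enhancer reads the sMf group ranked 4 and the Wt group 10, with suvh1-2 without a cassette between them at 8. Col with ARE//AGe ranked 1, at 14.3 RPM, and the next group, hdp2-1 ARE//AGe with rMf flowers, had 1.63 ± 0.334 RPM.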

How the data were processed

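The authors deposited, per the file headers, raw read counts per strand over AGe and the AGp or M2 column with each library's total, uniquely and multiply mapped reads, and RPM. The deposited RPM values equal count / uniquely mapped reads × 1000000. Per the submitters' processing notes, reads were processed with HISAT2 and HTSeq 0.13.5 on TAIR10, with settings not given in the sources used here. Libraries were grouped by the labels. The raw counts of all 57 libraries, with uniquely mapped reads as library sizes and 20 group means, were fitted with edgeR 4.0.16 (R 4.3.3), with 1 common dispersion (biological coefficient of variation 19.1%, 37 residual degrees of freedom). Pooled suvh1-2 means were weighted by libraries (2 and 3), and differences of differences were contrasts in the same fit. All 4 features were named in every comparison. Single values received two-sided exact permutation tests of the difference of means, 45 in all. Intervals of shares are exact (Clopper-Pearson) and those of count ratios are conditional on the summed counts, and both cover counting error only, as do limits set at 3 counts. Alternatives were all mapped reads as library size, other sets of libraries, each library left out, a replicate block, DESeq2 1.42.0, limma 3.58.1 on log2(RPM + 0.05) or log2(RPM + 0.5), a minimum mean of 10 reads, a prior count of 2, feature-wise dispersions, adjustment over all comparisons, and other weights for the pooled group. Motif matches were counted in TAIR10.1, whose annotated AG intron has the coordinates of AGe in the file. Scripts were tested on simulated data. The groups, features and tests were chosen with earlier results of these data known.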

Additional observations from a re-analysis of the deposited data

Results flagged for a closer look

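Among the 5 suvh1-2 ARE//AGe libraries, sMf replicate 3 stood apart in its multiply mapped reads, 21.5% of mapped reads against 10.9% to 13.5% in the other 4. For 1 measure, about 1 group in 20 has a library this far out by chance. Several measures were screened in this way, so a flag on any of them is more frequent. The 5 libraries also join both phenotypes. The change in AGe reads with the cassette differed between suvh1-2 and Col in the edgeR interaction test, by log2 1.18 on the sense strand and -5.70 on the antisense strand. In that test the suvh1-2 cassette libraries pooled Wt and sMf flowers, and the other groups were all Wt. All of these groups were of batch B. The sMf to Wt difference was larger in suvh1-2 than in hdp1-1 by log2 0.86 (sense) and 1.59 (antisense), and larger than in hdp2-1 by log2 1.41 (antisense), by the same kind of test. The causes of these differences were not tested.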

How the results depend on the processing

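Of 516 alternative values of single features, 480 kept their direction and their side of the threshold, 24 were no longer called, 3 became called and 9 changed sign, 0 of these being called values. Not every alternative could change an outcome, here or in the counts of alternatives above. A prior count of 2 altered log2 values, and with them the SE and intervals, but left the p-values as they were. Adjustment over all comparisons left the log2 values as they were. Of 145 counts of called features, 122 stayed within 1.5 times. For sMf against Wt the count of 2 became 1 when library size was all mapped reads or the fit held batch B only, and ranged from 0 to 2 with 1 library left out. For sMf against no cassette it was 1 to 2 with 1 library left out. For suvh1-2 against Col with ARE//AGe the count of 4 became 2 where only features with a mean of 10 reads were tested, because 2 features remained. The difference from hdp1-1 had 0 calls when the fit held no other groups, 1 with limma at a pseudocount of 0.05, and 0 to 2 with 1 library left out. The difference from hdp2-1 had 0 calls with all mapped reads, limma at 0.05, or libraries over 20% multiply mapped left out, 2 when the fit held no other groups or under the minimum of 10 reads, and 0 to 1 with 1 library left out. Sign changes concerned only promoter-column values. For Wt flowers against no cassette the sense value was -0.020 with limma at 0.05, and with 1 library left out it was -0.78 to 0.57 (sense) and -0.63 to 0.16 (antisense). With 1 library left out, the antisense value of sMf against no cassette was -0.14 to 0.65, that of the hdp1-1 difference -0.40 to 0.21, and the sense value of the hdp2-1 difference -0.089 to 1.26. Where no cause is given above, the cause was not tested.

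Replicate numbers were not taken as pairing the samples. Of 15 same-numbered pairs of libraries, 6 had a correlation over 0.1, and the values ran from -0.80 to 0.95. Each correlation is over 4 features only, so these values cannot decide whether the samples are paired. With a replicate block in a fit of batch B, sMf against Wt was log2 0.61 (sense, edgeR adjusted p = 0.0450) and 1.24 (antisense, edgeR adjusted p = 0.0132), the promoter sense value of Wt against no cassette was -0.029, and no count of calls moved by over 1.5 times.

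Promoter counts of 1 to 39 per library limit what that column can show. Leaving out a Wt library of suvh1-2 ARE//AGe leaves 1, whose spread is then taken to be that of the other groups.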
